A study of Mus musculus with 5 samples.

Results

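Periostin (Postn), decorin (Dcn) and 7 further genes of the extracellular matrix and fibroblast surface, together with lysyl oxidase (Lox), were examined by gene symbol in RNA-seq libraries of mouse thyroid tumor cell lines. They make up 10 of the 17923 genes listed in at least 1 library. The set was chosen on the values of Postn, Dcn and Thy1 in the library null 3, so their height in that library is described here and not tested.

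The lines were derived from thyroid tumors of mice with BrafV600E, a mutation that keeps the MAPK cascade active. BVE-Ctnnb1wt cells kept the β-catenin gene Ctnnb1 (2 libraries), and BVE-Ctnnb1null cells carried its deletion on the same Braf background (3 libraries). By the labels, wt 1 was grown without TSH, the hormone that drives thyroid cells, and wt 2 with TSH, both from a line called BVE at P20. Null 1 came from the line BVECTN_4 at P8 without TSH, null 2 from BVECTN_4A at P11 and null 3 from BVECTN_5 at P7, with no TSH note for the latter pair. The culture description instead gives about 25 passages for the wt line, about 20 for the null lines, and medium with 4 mU/mL bovine TSH. As the wt libraries share 1 line and each null library has its own line name, genotype, line and passage cannot be told apart. Each library held between 29360002 and 30713079 estimated counts. A gene with a count of 0 could have had up to 3 counts, or 0.102 CPM in the shallowest library, where CPM scales counts to depth (this covers counting error only).

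Ctnnb1 itself was at 59.29 FPKM (fragments per kilobase of transcript, scaled to library depth) in wt 1 and 73.75 in wt 2, and at 124.58, 196.26 and 117.82 in null 1 to 3. The gene-level RNA was therefore not lower in the libraries labelled null (log2 fold change 0.55 ± 0.44 SE, edgeR adjusted p = 0.516, n = 2 and 3). Values per gene do not show whether the deleted exons were missing, so this level neither bears out nor contradicts the labels.

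The extracellular matrix is the protein meshwork that cells secrete around themselves. Fibroblasts lay down most of it in tissues, while epithelial tumor cells can also make matrix genes when they take on mesenchymal features. Matricellular proteins such as periostin and SPARC tune how cells hold on to that meshwork, small leucine-rich proteoglycans such as decorin and lumican bind collagen fibrils, fibrillin microfibrils carry elastic fibers, and lysyl oxidase cross-links collagen and elastin.

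Most of the genes fell into contrasting patterns. Postn, Dcn and Thy1 were near 0 in 4 libraries and abundant in null 3. Fn1 was abundant everywhere and higher in each null line than in either wt library. Sparc and Lox were lowest in null 1, and Fbn1 was at 0 there. Lum and Fap, a pair often used to mark fibroblasts, stayed under 1 FPKM in every library.

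**Figure D1:**
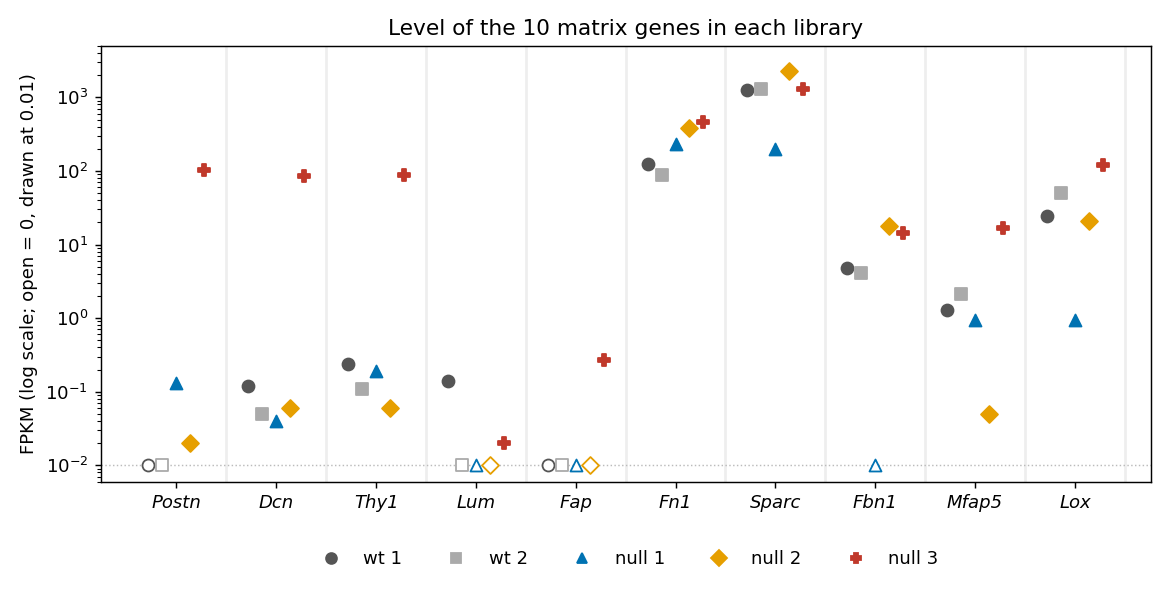
FPKM of each gene (horizontal axis) on a log scale, 1 symbol per library, with values of 0 drawn open at 0.01. Postn, Dcn and Thy1 lie between 84.66 and 101.56 in null 3 and at or under 0.24 in the other 4 libraries, while Fbn1 is at 0 in null 1.

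Periostin, a secreted protein that binds integrins and collagen, had 0 estimated counts in wt 1 and wt 2, 12 in null 1, 2 in null 2 and 9617 in null 3. On the FPKM scale this was 0, 0, 0.13, 0.02 and 101.56. Null 3 was 781-fold above the highest other library, and at least 3332-fold above the wt libraries when these were set to the floor of 3 counts. Decorin, a proteoglycan that coats collagen fibrils, was at 0.12, 0.05, 0.04, 0.06 and 84.66 FPKM in wt 1, wt 2 and null 1 to 3, 705.5-fold higher in null 3 than in the next library. Thy1 (CD90), a surface glycoprotein of fibroblasts and T cells, was at 0.24, 0.11, 0.19, 0.06 and 88.47 FPKM. Its level in null 3 was 369-fold above the next library. In bulk RNA, few cells with much of a transcript and many cells with little of it cannot be told apart.

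Lumican and decorin are encoded side by side on chromosome 10, with the related genes Kera and Epyc next in the RefSeq order. Only Dcn of these was abundant in null 3: Lum was at 0.14 FPKM in wt 1, at 0 in wt 2, null 1 and null 2, and at 0.02 in null 3. Kera was listed in no library, and Epyc reached 0.04 FPKM in null 2 alone. Fap, a serine protease of activated fibroblasts, had 22 counts in null 3 (0.27 FPKM) and none in the other 4 libraries, at least 7.62-fold higher than the wt floor.

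The Postn transcripts listed in null 3 differed in exons near the end of the coding sequence. Of the FPKM, 45.6% belonged to the transcript with an 84-base exon (chr3:54385671-54385754), 7.95% to the one with an 81-base exon (chr3:54380412-54380492) and 46.5% to the one with neither (GRCm38, plus strand). For Dcn in null 3, 88.5% of the FPKM belonged to the transcript with the upstream first exon and 11.5% to the one with the downstream first exon. These shares are the estimates that divided reads common to several transcripts.

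Because Postn was off in most libraries and high in 1, the 300 bases around its start are shown (RefSeq, GRCm38.p6, chr3:54360857-54361156, plus strand), with a TATA box (TATAAA, first base 26 bases before the gene start) in capitals.
Postn: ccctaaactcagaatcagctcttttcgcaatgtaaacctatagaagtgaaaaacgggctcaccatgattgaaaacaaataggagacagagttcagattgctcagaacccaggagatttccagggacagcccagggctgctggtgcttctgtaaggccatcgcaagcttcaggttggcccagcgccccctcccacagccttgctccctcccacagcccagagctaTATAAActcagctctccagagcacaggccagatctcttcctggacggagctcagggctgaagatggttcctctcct
Promoter entries were matched for 3 of the 10 genes (Postn with 2, Sparc and Fbn1). Both strands were also searched for the AP-1 site (TGANTCA), the TEAD site (GGAATG) and an E-box (CACGTG). The TATA box was the only match in the window shown, and no motif matched in the other Postn window or in those of Sparc and Fbn1. Of 32851 promoter windows of the same length, 13.6% held the TATA box, 7.81% the AP-1 site, 14.7% the TEAD site and 7.15% the E-box.

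Fibronectin (Fn1), the glycoprotein that cells assemble into fibrils as a first matrix, was at 122.52 FPKM in wt 1 and 87.72 in wt 2. It was at 233.88, 387.43 and 462.60 FPKM in null 1, null 2 and null 3. Every null line was above both wt libraries, by 2.23-, 3.69- and 4.40-fold over the wt mean of 105.1 ± 24.6 FPKM (SD, n = 2), with a null mean of 361.3 ± 116.6 (SD, n = 3). Null lines did not overlap the wt libraries from above in 35.1% of the 12217 genes with at least 1 FPKM in any library (7.1% from below), and 2 of the 8 genes measured here were so ordered, Fn1 and Postn. Postn was included only through null 3 and had 2 counts in null 2 against 0 in wt, under the floor of 3, so nothing is read from its order. The median gene was itself higher by 0.53, 0.60 and 0.72 on the log2 FPKM scale in null 1 to 3, and by 0.29 after TMM scaling. In edgeR the Fn1 difference was 1.19 ± 0.43 (log2, SE), adjusted p = 0.231, and without null 3 it was 0.95 ± 0.46, adjusted p = 0.333, so it did not pass 0.05.

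The estimated shares of the Fn1 transcripts, which differ in the exons they hold, also varied between libraries. Like those of Postn and Dcn, they are estimates that divided reads common to several transcripts, and no exon was counted by itself. The extra domains B and A are repeats spliced into the fibronectin of embryonic, wounded and tumor tissue and largely left out of the plasma form made by the liver. The transcript with extra domain B accounted for 33.1% of Fn1 FPKM in wt 1, 35.1% in wt 2, 2.16% in null 1, 48.9% in null 2 and 68.5% in null 3. Transcripts with extra domain A accounted for 66.9%, 73.6%, 14.3%, 59.6% and 71.9%. Null 1, whose total Fn1 was above that of both wt libraries, therefore had less of the extra domain B transcript than they did, 5.06 FPKM against 40.55 and 30.81. In null 2 and null 3 that transcript was at 189.48 and 317.03 FPKM. The groups overlapped for both exons, and each line has 1 library, so the difference between lines was not tested. No listed transcript holds B without A, so the shares are not independent. A further variable stretch was whole in 95.8%, 94.6%, 80.7%, 96.8% and 93.6% of the FPKM, again lowest in null 1.

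The extra domain exons are printed from the annotated transcripts (GRCm38, minus strand, both coding): extra domain B at chr1:71613763-71614035, exon 25 of 46, and extra domain A at chr1:71603660-71603929, exon 32 of 45.
Extra domain B: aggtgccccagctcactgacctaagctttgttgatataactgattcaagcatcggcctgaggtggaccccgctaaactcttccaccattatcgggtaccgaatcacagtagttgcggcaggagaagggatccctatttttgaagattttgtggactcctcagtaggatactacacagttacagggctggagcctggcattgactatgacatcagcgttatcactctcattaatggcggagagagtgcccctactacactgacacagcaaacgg
Extra domain A: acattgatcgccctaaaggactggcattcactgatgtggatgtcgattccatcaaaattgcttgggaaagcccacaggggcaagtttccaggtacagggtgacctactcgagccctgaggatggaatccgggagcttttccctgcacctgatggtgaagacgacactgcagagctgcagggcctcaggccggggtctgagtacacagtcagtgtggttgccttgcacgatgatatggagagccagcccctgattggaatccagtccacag

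**Figure D2:**
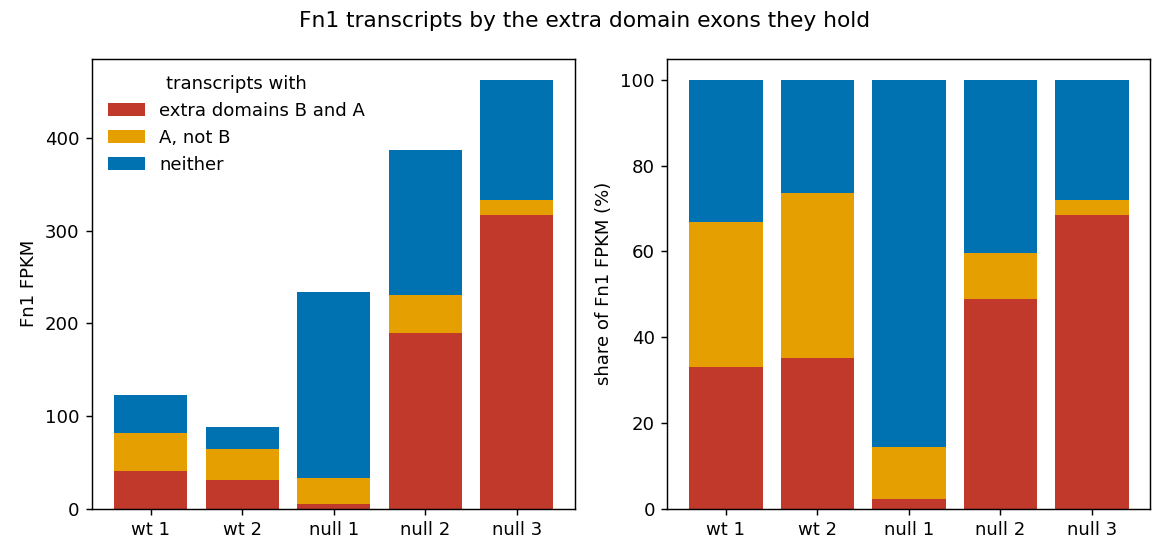
Fn1 FPKM (left) and its percentage (right) in each library, stacked by the extra domain exons of the transcripts. The null 1 bar is mostly transcripts with neither exon (extra domain A 14.3%), while null 3 is mostly extra domain B and A together (68.5%).

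Sparc, a collagen-binding protein abundant in remodelling tissue, was the most abundant of the set in 4 libraries. Its level was 1269.34 FPKM in wt 1, 1289.36 in wt 2, 195.84 in null 1, 2297.66 in null 2 and 1295.96 in null 3. Null 1 was 6.53-fold below the wt mean of 1279 ± 14.2 (SD, n = 2), and on the FPKM scale null 3 lay beside the wt libraries and null 2 above them. In CPM after TMM scaling, wt 1 and wt 2 were at 3504 and 4084, null 2 at 4352 and null 3 at 2470, below both wt libraries. The null mean was 1263 ± 1051 (SD, n = 3), with both groups overlapping, and the edgeR difference was -0.65 ± 0.83 (log2, SE), adjusted p = 0.692.

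Fibrillin-1 (Fbn1), the backbone of microfibrils, was at 4.78 FPKM in wt 1, 4.13 in wt 2, 0 in null 1, 17.95 in null 2 and 14.22 in null 3. No count was assigned to it in null 1, where 1474 and 1286 were assigned in the wt libraries, at least a 450.5-fold difference against the floor. Null 2 was at least 1805-fold above null 1. Mfap5, a small microfibril-associated glycoprotein, was at 1.30, 2.14, 0.93, 0.05 and 16.70 FPKM, 7.80-fold higher in null 3 than in any other library. Only 2 counts were assigned to it in null 2, under the floor of 3. Fbn1 was thus highest in null 2 and lowest in null 1, and Mfap5 highest in null 3 and lowest in null 2.

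Lox, the copper enzyme that cross-links collagen and elastin, was at 24.65 FPKM in wt 1 and 50.61 in wt 2. Its level was 0.95 FPKM in null 1, 20.67 in null 2 and 118.67 in null 3. Null 1 was 39.6-fold below the wt mean of 37.6 ± 18.4 (SD, n = 2), null 2 just below wt 1, and null 3 2.35-fold above wt 2. In CPM after TMM scaling, null 2 was at 61.73 against 107.3 in wt 1, and null 3 at 356.7 against 252.8 in wt 2. Among the 5 genes of the set that reached 1 FPKM in a wt library, only Lox differed at least 2-fold between them, 2.05-fold higher in the one labelled with TSH. Dcn, Thy1 and Lum, each at most 13 counts in either, were not compared. Of 9613 genes measured there, 4.37% were at least 2-fold higher and 10.3% at least 2-fold lower, with 1 library each and no test.

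Set against both wt libraries by at least 4-fold, a size with no replicate behind it, the genes were counted in each line. In null 1, 3 of 5 measured genes were lower (Sparc, Fbn1, Lox) and 0 higher, where 4.48% of all genes were lower and 15.5% higher. In null 2, 1 of 5 was lower (Mfap5) and 0 higher, against 3.13% and 15.2% of all genes. In null 3, the library the set was chosen on, 4 of 8 were higher (Postn, Dcn, Thy1, Mfap5) and 0 lower, beside 16.7% and 2.54%, and the same 4 were at least 4-fold above all other libraries, beside 3.04%. Postn, Dcn and Thy1 were measured only because they were high there, so nothing is read from that count. Fbn1, Lox, Lum and Sparc also stand in a matrix gene list that the study drew up on these samples, so their level in null 1 is not independent of that list.

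**Figure D3:**
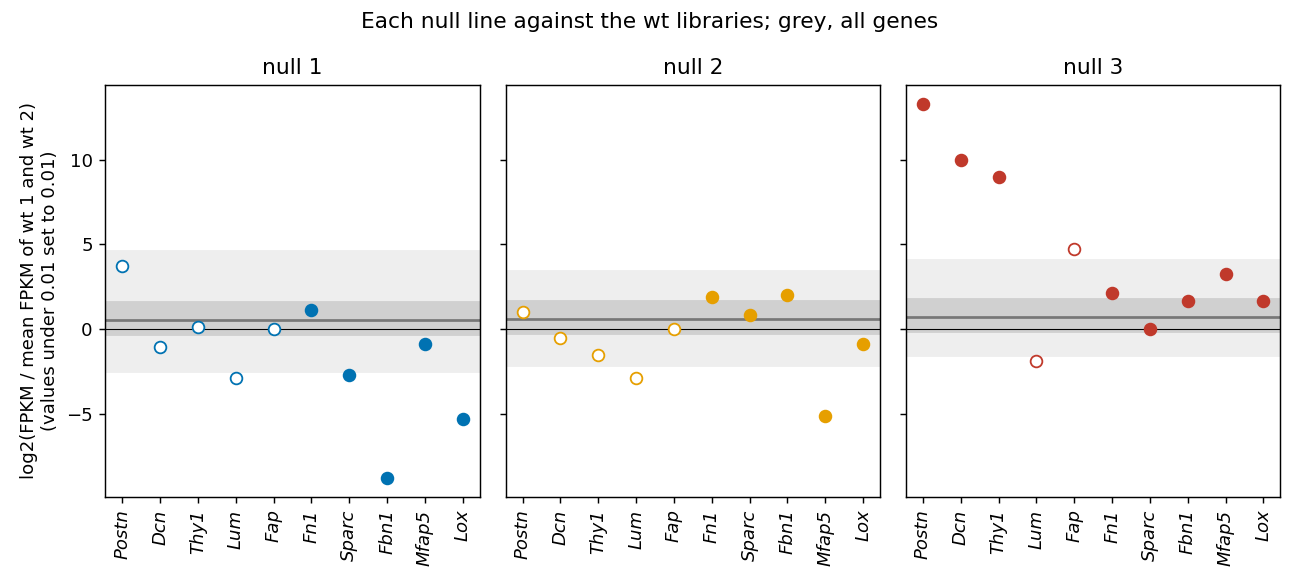
log2 ratio of FPKM in each null line to the wt mean, 1 point per gene and 1 panel per line, with the median (line), middle 50% (dark band) and 5th to 95th percentile (light band) of 12217 genes in grey. Open points are genes under 1 FPKM in the 3 libraries of a panel. Among the filled points, Fbn1, Lox and Sparc sit below the light band in null 1, Mfap5 in null 2, and Postn, Dcn and Thy1 above it in null 3.

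Over all 5 libraries, edgeR called 0.0% of 13220 genes higher and 0.0% lower in null than wt at an adjusted p of 0.05, none of the 10 genes among them. At an unadjusted p under 0.05 there were 1646 higher and 803 lower, and DESeq2 called 1114 and 487, but gave no p for Postn, Dcn and Thy1. 7 of the 10 genes passed the filter on low counts. Dcn, Lum and Fap were kept in the fit although they did not. Fitted log2 differences for the genes the set was chosen on, given as a description, were 14.42 ± 5.78 (SE) for Postn, 7.71 ± 3.61 for Dcn and 6.77 ± 3.22 for Thy1. In the same edgeR fit the differences were -3.74 ± 2.03 for Lum (adjusted p = 0.357), 5.68 ± 3.63 for Fap (0.433), 0.63 ± 1.97 for Fbn1 (0.882), 1.12 ± 1.84 for Mfap5 (0.764) and -0.36 ± 1.45 for Lox (0.909). With 1 library left out, Lum was at 1.77 without wt 1 and Fbn1 at -0.03 without null 2. Mfap5 was at -2.40 without null 3, and Lox at -2.48 without null 3 and 0.33 without wt 2. In the fit without null 3, the library the set was chosen on, 0.0% of 12672 genes were called in either direction (1431 higher and 879 lower unadjusted). The edgeR differences there were 5.61 for Postn (adjusted p = 0.31), -1.47 for Dcn (adjusted p = 0.55) and -1.04 for Thy1 (adjusted p = 0.659). Neither Postn nor Dcn passed the count filter in that fit. Dcn had 7, 3, 2 and 3 counts in wt 1, wt 2, null 1 and null 2, so its sign is not read. With 2 libraries a side an exact permutation test cannot go below p = 0.333. The study calls its libraries biological replicates and derived its lines from tumors of donor mice, but the labels tie no library to an animal, and both wt libraries carry the same line name. The 2 wt libraries analysed here are fewer than the replicates the study describes. The p-values therefore measure only the spread between these libraries.

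Lists of the same families, which hold the genes above as well as others, were counted by the same 4-fold size. Only genes with a mean of at least 1 FPKM in the wt libraries were kept, so that none entered through the null line compared. Of 9231 such genes, 6.69% were higher and 4.96% lower in null 1, 6.38% were higher and 3.44% lower in null 2, and 7.18% were higher and 2.88% lower in null 3. Of the 10 genes above, 5 were kept, with 0 higher and 3 lower in null 1, 0 higher and 1 lower (Mfap5) in null 2, and 1 higher (Mfap5) and 0 lower in null 3. No list gene that edgeR tested was called in either direction. Of 14 small leucine-rich proteoglycans, Dcn and Lum included, only biglycan (Bgn), a close relative of decorin, was kept. Its level was 1227.9, 1121.82, 0.40, 20.94 and 1059.42 FPKM in wt 1, wt 2 and null 1 to 3. It was low in null 1 and null 2 and close to wt in null 3. Prelp was at 0.13, 0.26, 0.05, 21.21 and 32.40 FPKM, high in null 2 as well as null 3.

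Of 17 matricellular genes, Postn and Sparc included, 9 were kept. In null 1, 2 were higher and 3 lower, with Sparc among the latter. In null 2, 3 were higher and 2 lower, and in null 3, 3 were higher and 0 lower. Osteopontin (Spp1), a phosphoprotein of bone and tumors, was at 71.15, 22.05, 373.2, 5234.41 and 1125.12 FPKM and peaked in null 2. Thbs2, a thrombospondin, was at 1.05, 0.76, 0.23, 0.05 and 175.22 FPKM, and Tgfbi, a relative of periostin, at 1.33, 3.14, 1.45, 43.94 and 91.25. Both were highest in null 3 but were named after their values were seen, so nothing is read from this. Thbs2 was not among the genes kept by their wt level, and Tgfbi, unlike Postn, was also high in null 2. Ccn1, a secreted integrin ligand, was at 248.38, 206.11, 186.7, 339.82 and 611.55. Of 18 microfibril and elastic fiber genes, Fbn1 and Mfap5 included, 14 were kept. In null 1, 2 were higher and 5 lower, with Fbn1 among the latter. In null 2, 1 was higher and 1 lower (Mfap5). In null 3, 4 were higher, with Mfap5 among them, and 2 lower. Fbln2 and Ltbp3 were highest in null 1, at 239.33 and 177.55 FPKM, the line in which Fbn1 was at 0. Efemp2 was highest in null 3, at 160.87 FPKM against 31.74 and 34.14 in wt.

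All 15 lysyl oxidases and collagen-modifying genes, Lox included, were kept. In null 1, 1 was higher and 4 were lower, with Lox among the latter. In null 2, 0 were higher and 1 was lower, and in null 3, 0 were higher and 0 lower. Serpinh1, the collagen chaperone, was at 1192.33, 1023.21, 260.17, 711.66 and 689.75 FPKM, lowest in null 1 like Lox. Pcolce and the prolyl hydroxylase P4ha1 were also lowest there, at 143.0 and 26.06 FPKM. Of 11 fibronectin receptors and partners, Fn1 included, 8 were kept, with 1 higher and 0 lower in null 1, 2 higher and 0 lower in null 2, and 3 higher and 0 lower in null 3. Itgb1, a subunit of the fibronectin receptor, was at 61.78, 41.28, 88.83, 234.12 and 285.92 FPKM, the same order of null lines as Fn1, while Itgb5 was highest in null 2 at 143.87 FPKM.

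Of 18 mesenchymal transcription factors, 12 were kept, with 0 higher and 9 lower in null 1, 1 higher and 3 lower in null 2, and 0 higher and 0 lower in null 3. Twist1, which drives mesenchymal features, was at 32.51, 36.12, 0.02, 30.36 and 65.0 FPKM, so the library with no Fbn1 had next to no Twist1. Osr1 was at 34.71, 27.69, 1.62, 0.59 and 19.26 FPKM, low in null 2 as well. Prrx2 went the other way in null 1, at 35.12 FPKM against 8.87 and 14.12 in wt.

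Medians of the edgeR log2 difference over the tested genes of a list, with 0.29 for all genes, changed with the libraries fitted in several lists, where the genes passing the count filter can change too. The proteoglycan median of 1.88 over 9 genes was -1.38 over 8 without null 3, the fibroblast median of 0.88 over 11 genes was -1.71 over 9 without null 3, and the matricellular median of 2.30 became 0.57 without null 3. Each of these lists holds Postn, Dcn or both, genes the set was chosen on in null 3. Dcn, Lum and Fap were also kept in the fit although they failed the count filter. Nothing is therefore read from these shifts without null 3. The matricellular median rose to 3.06 without wt 1 and 4.03 without wt 2, each over 16 genes. Without wt 1 the fibroblast median was 1.77 over 13 genes. The epithelial median of 3.53 became 0.25 without null 1, and the thyroid median of 0.30 became -1.95 without null 2 and -0.12 without null 1. For the transcription factors -0.11 became 0.34 without null 1 and -0.92 without null 3, and for the lysyl oxidases -0.41 became -1.27 without null 3. The fibronectin receptor median of 1.38 stayed between 0.99 and 1.46, and the microfibril median of 0.63 between 0.35 and 0.66, with 1 library left out.

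Markers of cell types also differed between the libraries, not all in the same direction, and their part in the result was not tested. Of 13 fibroblast markers, which include 5 of the genes above, 5 were kept by their wt level (Pdgfra, Pdgfrb and 3 collagens), with 0 higher and 5 lower in null 1, 0 higher and 1 lower in null 2, and 3 higher and 0 lower in null 3. The 8 markers outside the set summed to 289.7, 255.1, 1.35, 148 and 1142 FPKM (all 13 to 290.2, 255.2, 1.71, 148.1 and 1417), with Col1a1 the most abundant in each (161.02, 118.44, 1.11, 104.06 and 570.48). Col1a2 was at 49.38, 51.07, 0.13, 13.21 and 334.18 FPKM. Col3a1 was at 0 in null 1 and 189.08 in null 3, and Lum, Fap, Dpp4 and Pi16 stayed under 1 FPKM in all 5. Epithelial markers were present in null 3 as well, and the keratins were present in every library. Epcam was at 5.04, 4.61, 152.05, 0 and 59.6 FPKM and Cdh1 at 1.94, 1.62, 135.74, 0 and 20.92, both above wt in null 3 and at 0 in null 2. The keratins did not move alike. Krt7 was at 79.65, 123.98, 5130.95, 110.97 and 461.3 FPKM and Krt19 at 31.37, 51.14, 2244.42, 17.77 and 93.71, above wt in null 3. Krt18, at 320.53, 457.06, 2604.95, 346.31 and 366.93, lay between the wt libraries there, and Krt8, at 634.39, 1103.53, 1797.7, 230.48 and 201.48, was lowest there. Of these 6 markers, 5 were higher and 0 lower by 4-fold in null 1, 0 higher and 2 lower in null 2, and 2 higher and 0 lower in null 3. Summed thyroid markers were lowest in null 3, at 4.83 FPKM against 15.25, 20.61, 35.02 and 68.54 in the others. The list was mixed within itself. Nkx2-1, a thyroid transcription factor, was at 0.26 FPKM in null 3 against 9.21 to 34.83 elsewhere, whereas Pax8, another, was at 0.40, 0.17, 18.15, 12.78 and 2.56, so above wt in null 3. Hhex was at 3.71, 4.14, 1.08, 20.24 and 1.38, lowest in null 1. Tg, the precursor of thyroid hormone, was under 1 FPKM in every library, although the labels call all 5 thyroid epithelial cells. Endothelial markers summed to at most 0.75 FPKM, led by Kdr at 0.62 in null 3. The leukocyte markers Ptprc, Adgre1 and Cd3e were listed in no library. Cd68 was at 6.09, 14.2, 59.81, 1.0 and 39.91 FPKM, highest in null 1 and lowest in null 2. Cd79a, at 0.77, 0.59, 0.18, 0.03 and 0.03, was below wt in each null line. Lyz2 was at 0.49, 1.39, 0.03, 0.22 and 0.61. The submitters state that genotyping was used to check the cells' thyroid origin.

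**Figure D4:**
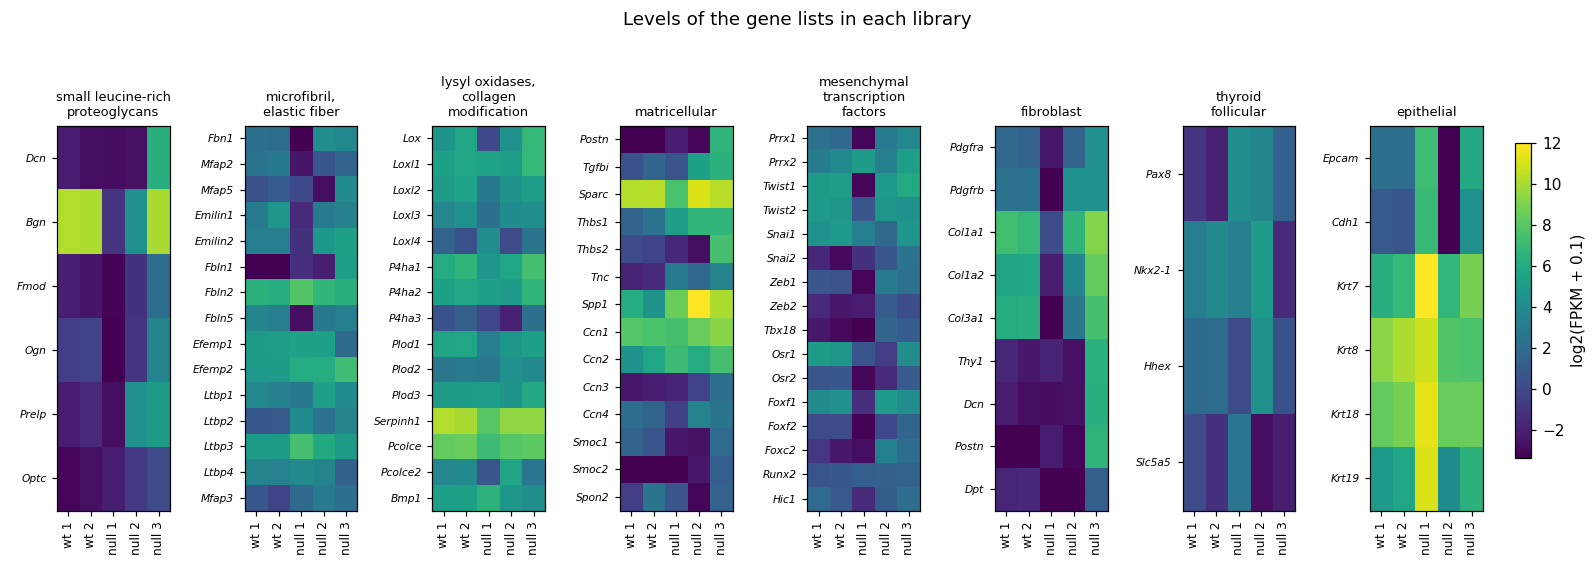
log2(FPKM + 0.1) of the genes of 8 of the lists that reached 1 FPKM in at least 1 library (rows) in the 5 libraries (columns). Null 1 is dark across the fibroblast list, which sums to 1.71 FPKM there, and bright across the keratins. Col1a1 and the keratins are both present in wt 1, wt 2, null 2 and null 3.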

How the data were processed

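RNA-seq libraries (Illumina TruSeq) were made from total RNA of cultured lines. The authors deposited, per RefSeq transcript, expected counts and FPKM values. The aligner, counting tool and genome build are not given in the sources used here. Expected counts and FPKM were summed per gene through the RefSeq table (17866 of 17923 genes were named), and counts were rounded. Groups followed the labels. The main comparison was edgeR 4.0.16, quasi-likelihood with TMM and filterByExpr, Benjamini-Hochberg over all genes tested, with DESeq2 1.42.0 and limma 3.58.1 on log2(FPKM + 0.1) as alternatives. Scripts were tested on simulated data. Fold comparisons of single libraries used genes of at least 1 FPKM with values under 0.01 set to 0.01, and list counts used genes with a wt mean of at least 1 FPKM, chosen after the data were seen. Exon positions came from GENCODE M21 and promoters from RefSeq, both GRCm38. The genes picked for naming were the 10 members, the 3 highest of each list and the 5 nearest in profile to Postn, Dcn and Thy1. Not all of the genes picked were printed. A few others of the lists (Thbs2, Tgfbi, Krt8, Pdgfra, Pdgfrb, Epcam, Cdh1, Fap, Dpp4, Pi16, Kera, Epyc, Tg, Ptprc, Adgre1 and Cd3e among them) were named after their values were seen. Members and lists were chosen with earlier results of these data known. Each library has 1 value per gene, and the depth was similar in all 5.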

Additional observations from a re-analysis of the deposited data

How the results depend on the processing

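Other settings changed how many genes passed. DESeq2 called 1114 higher and 487 lower, edgeR without a filter 4 lower, and with at least 10 counts in every library 1 lower. limma on log2(FPKM + 0.1), (FPKM + 0.01) and (FPKM + 1) called 1, 1 and 1 higher and 5, 3 and 7 lower. Leaving out 1 library in turn gave 0 calls in either direction in edgeR. On the log2 scale, leaving out 1 library moved Postn from 5.61 (without null 3) to 14.94, Sparc from -1.47 (without null 2) to -0.18 (without null 1), Dcn from -1.47 (without null 3) to 8.28, Thy1 from -1.04 (without null 3) to 7.29, Lum from -5.44 to 1.77 (without wt 1), Fbn1 from -0.03 (without null 2) to 1.19, Mfap5 from -2.40 (without null 3) to 1.63, and Lox from -2.48 to 0.33 (without wt 2; 0.16 without null 1). Postn was at 25.98 in DESeq2 and 2.30 to 6.23 in limma. In limma Dcn was at 2.07 to 2.92, Thy1 at 2.04 to 2.63 and Fap at 0.11 to 1.60. Lum was at -1.43 to -0.08 there, Lox at -1.41 to -1.08 and the members' median at 0.13 to 0.49. limma at 0.1 and 0.01 gave -0.62 and -1.70 for Fbn1 and -0.37 and -0.78 for Mfap5. The cause was not tested. The members' median of 1.16 became -0.33 with at least 10 counts in every library, where 3 of them were left, and ran from -1.04 (without null 3, over 9 members) to 1.52 with 1 library left out. On TPM, 2 members (Fn1 and Fbn1) were at least 4-fold higher in null 2. With genes kept by a wt mean of at least 1 FPKM, a setting chosen after seeing the data, 1 member and not 4 was higher in null 3. Null 3 is the only library with its replicate number, so a replicate block gives it a term of its own. The block values below therefore take the null against wt difference from wt 1, wt 2, null 1 and null 2 alone. With a replicate block the log2 differences were 5.75 for Postn, -1.49 for Sparc, -1.38 for Dcn, -1.10 for Thy1, -3.86 for Fbn1, -3.20 for Mfap5, -3.54 for Lox and 0.00 for Fap, whose only library with counts has a number of its own, the members' median was -1.43 and the medians of the proteoglycan, fibroblast, thyroid, microfibril, epithelial, transcription factor, matricellular and lysyl oxidase lists were -0.86, -3.55, -0.29, -0.37, 0.15, -2.53, 0.34 and -1.39, and no gene was called. With limma at 0.1 the microfibril, fibroblast and thyroid medians were -0.26, -0.48 and -0.29, and under the 10-count filter 1 proteoglycan was left, at -2.30. The shared numbers pair libraries by name only: deviations correlated at -0.088 and -0.089. Fap had no value without null 3. Genes near 3 counts cannot be ranked at this depth.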

Other observations

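The genes whose profiles over the 5 libraries lay nearest to Postn, Dcn and Thy1 (Euclidean distance of centred log2(FPKM + 0.1) among 7275 genes of at least 10 FPKM in 1 library) included one another and several secreted proteins. Nearest to Postn were Grb10 (distance 1.21), an adaptor that dampens insulin and IGF receptor signalling, and Sfrp1 (1.35), a secreted Wnt antagonist, followed by Dcn (1.46), Lgi2 (1.49) and Thy1 (1.51). Sfrp1 was at 0, 0.01, 0.55, 0.18 and 128.81 FPKM in wt 1, wt 2 and null 1 to 3. Nearest to Dcn were Grb10 (0.54), Thy1 (0.86), Gpx7 (1.01), Mgp (1.09) and Sod3 (1.12). Mgp, matrix Gla protein, which restrains calcification, was at 0.89, 0.99, 1.08, 1.56 and 378.54 FPKM, above Dcn in every library. Nearest to Thy1 were Sod3 (0.53), the extracellular superoxide dismutase, Srpx2 (0.75), Dcn (0.86), Gpx7 (0.86) and Grb10 (0.99). With log2(FPKM + 1), 3 of the 5 genes for Postn, 2 for Dcn and 2 for Thy1 were again among the nearest. The libraries are few and 1 of them sets these profiles, so likeness here mostly means being high in null 3.

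Of the pericyte and smooth muscle markers, Mcam was at 1.91, 1.40, 23.5, 13.93 and 7.03 FPKM and Des at 1.65, 1.47, 1.03, 0.09 and 4.24, with 0 of the 3 tested genes called. C cell, Schwann and parathyroid markers stayed under 1 FPKM in all 5 libraries. No pattern met the rules for a closer look.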
